A study of Caenorhabditis elegans with 36 samples.

Results

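The members described here are 10 heat shock genes of Caenorhabditis elegans, listed by symbol and chosen with earlier results of these data known. The small heat shock protein genes are hsp-16.1, hsp-16.2, hsp-16.41, hsp-16.48, hsp-12.3, hsp-17 and sip-1, and the HSP70 genes are hsp-70, F44E5.4 and F44E5.5. The members are 10 of the 46778 gene identifiers in the count files. RNA of whole worms was sequenced from PD animals (strain BY273), which carry GFP and α-synuclein transgenes driven by the dat-1 promoter of dopaminergic neurons, and from wild type animals (strain N2). The deposited genotype field reads wild type for both strains, so the strain label alone separates them here. Hermaphrodites were moved as L4 larvae to plates seeded with E. coli OP50 at 20°C, with krill oil at 0.5 µl per ml of medium or without it (control), and were collected as adults at ages of 1, 3 and 6 days. The 12 groups were krill oil fed and control PD animals and krill oil fed and control wild type animals at each of the 3 ages, with 3 libraries in each group and 36 in all. No FdUrd was given to any group, markers of germline and embryos were measured in all of them, and the dopaminergic neurons in which the transgenes are active are a small part of a whole worm.

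Heat shock proteins are chaperones that hold or refold damaged proteins. Small heat shock proteins share an α-crystallin domain and bind unfolding clients without using ATP, while HSP70 proteins bind and release clients in cycles of ATP hydrolysis together with DNAJ co-chaperones. In C. elegans the hsp-16 genes, hsp-70, F44E5.4 and F44E5.5 are strongly induced by heat through the transcription factor HSF-1, and the hsp-16 genes are also targets of the insulin-regulated factor DAF-16 in long-lived mutants. The short HSP12 proteins, of which hsp-12.3 encodes one, are known for little chaperone activity in vitro, hsp-17 encodes a small heat shock protein that gathers clients into aggregates, and sip-1 encodes a small heat shock protein of oocytes and embryos that works best at acid pH.

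Totals ran between 16488713 and 34605080 counts a library (median 24785463), of which 5.31% to 24.5% fell on ribosomal RNA genes. Levels are given as CPM, counts scaled to library size with TMM factors over all 36 libraries, and 3 counts, taken as the limit that a count of 0 allows, were worth 0.0876 to 0.191 CPM in a single library. Intestine, muscle and oocyte markers had high counts in every group, and no marker of neurons or dopaminergic neurons was at 0 in all 3 libraries of a group. The labels number the libraries as replicates without naming the culture of each, so p-values measure the spread between these libraries. The study pooled its libraries for several sequencing runs, and the sources used here do not give the run of each library. Differences between runs were therefore not modelled. In RNA of whole worms, fewer cells of a type and less RNA per cell cannot be told apart. A gene is said to rise or fall at an adjusted p under 0.05 in edgeR's quasi-likelihood test, at any fold change. Overlap between groups was examined without its share over all genes, so a lack of overlap is a description.

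Of the 10 members, 8 had enough counts to be tested in at least 22 of the 27 comparisons. The other two, hsp-16.1 and hsp-16.48, were tested in none. hsp-16.1 lies on chromosome V from 9087293 to 9087782 on the minus strand of WBcel235, and had no count in any of the 36 libraries, which allows a level of up to 0.00337 CPM over all libraries. Its divergent neighbour hsp-16.48, from 9088131 to 9088617 on the plus strand, had 4 counts in 3 libraries, all from krill oil fed PD animals (2 and 1 counts at day 3, and 1 count at day 6). The second pair of the same inverted repeat, hsp-16.49 from 9089280 to 9089766 and hsp-16.11 from 9090077 to 9090604, had 6 counts and 1 count. The copies are near-identical, so reads from them may have been dropped or split by the authors' counting, and the low counts do not show that the genes were silent.

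The measured members lie as follows. hsp-16.2 (1804334 to 1804957, minus strand) and hsp-16.41 (1805178 to 1805875, plus strand) are divergent neighbours on chromosome V with 220 bases between them. hsp-70 lies on chromosome I (9320325 to 9322519, minus strand), and F44E5.4 (11757107 to 11759311, minus strand) and F44E5.5 (11759662 to 11761861, plus strand) are a divergent pair on chromosome II with 350 bases between them. These paired HSP70 genes are near-identical too, so how their counts divide is uncertain. Each counts as a member in the tallies below, though the pair may not be independent measurements. hsp-12.3 lies on chromosome IV (9444791 to 9445507, minus strand), hsp-17 on chromosome V (8384799 to 8385929, minus strand) and sip-1 on chromosome III (10506106 to 10506801, minus strand). Per kilobase of exon, sip-1 averaged 3073 CPM over the 36 libraries, hsp-17 29.0, hsp-16.41 3.94, hsp-16.2 3.48, hsp-70 2.24, hsp-12.3 1.66, F44E5.5 1.16 and F44E5.4 0.971. sip-1 was thus the most abundant member by far, and the heat-inducible genes were expressed at low levels throughout.

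Krill oil fed animals were compared with controls of the same strain and age. The heat-inducible genes hsp-16.2, hsp-16.41 and hsp-70 rose with krill oil at day 3 and at day 6 in both strains, F44E5.4 and F44E5.5 rose at both ages in PD animals and at day 3 in wild type, and hsp-12.3 fell at day 1 in both strains. In PD animals at day 1, 7 members were tested, of which 2 rose (hsp-16.41 and F44E5.4) and 3 fell (hsp-12.3, hsp-17 and sip-1), where 7.44% of all genes tested rose and 8.07% fell. At day 3 in PD animals, 5 of 8 members rose and 2 fell, against 21.2% of all genes that rose and 19.9% that fell. At day 6 in PD animals, 6 of 8 rose and 1 fell (sip-1), against 24.8% and 12% of all genes. In wild type at day 1, 4 members were tested and 1 fell (hsp-12.3), where 4.87% of all genes rose and 2.49% fell. At day 3 in wild type, 5 of 8 rose and 1 fell (sip-1), against 22.0% and 14.1%. At day 6 in wild type, 3 of 8 rose (hsp-16.2, hsp-16.41 and hsp-70) and 1 fell (hsp-17), against 30.9% and 32.6%. The median log2 fold change of the members tested was 0.93 in PD animals and 1.69 in wild type at day 3, beside 0.00 in each strain over all genes. At day 1 it was 0.25 in PD animals and -0.13 in wild type, beside 0.01 and -0.01 over all genes. At day 6 it was 0.89 in PD animals and 0.13 in wild type, beside 0.05 and -0.02 over all genes. With RLE factors in place of TMM, the share of higher among all called genes in PD animals at day 6 was 54.6% in place of 67.4%, and 51.0% with DESeq2. The filter on low counts keeps a gene that is high in 1 group alone, so the count of members that passed it is a description. The members were chosen with earlier results of these data known, so the counts of members called are descriptions too.

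**Figure D1:**
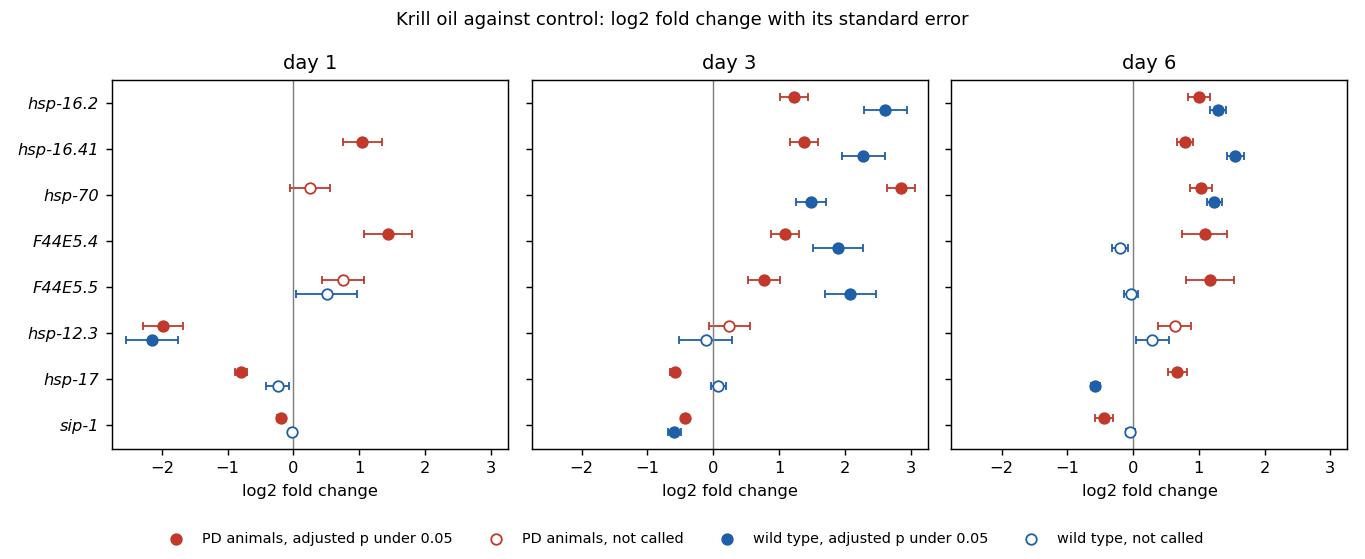
Log2 fold change of krill oil against control (x axis) for the 8 members tested (y axis), at day 1, 3 and 6, in PD animals (red) and wild type (blue), with standard errors, points filled at an adjusted p under 0.05 and no point where a member was not tested. The points of hsp-16.2, hsp-16.41 and hsp-70 lie right of 0 in both strains at day 3 and 6, hsp-12.3 lies left of 0 at day 1, and hsp-17 lies on opposite sides in the strains at day 6.

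hsp-16.2 and hsp-16.41, which encode heat-inducible small heat shock proteins, were close to the detection limit at day 1 in wild type and higher at later ages and with krill oil. At day 3, hsp-16.2 had 2.37, 2.21 and 2.12 CPM in krill oil fed PD animals, against 0.662, 1.23 and 0.914 CPM in PD controls. In wild type at day 3 it had 2.60, 3.37 and 1.60 CPM with krill oil and 0.314, 0.508 and 0.409 CPM without. The diets did not overlap in either strain, and the krill oil fed libraries of wild type varied more than those of PD animals. hsp-16.2 rose 2.35-fold in PD animals, a log2 change of 1.23 ± 0.21 (SE, adjusted p = 5.70e-04), and 6.13-fold in wild type, a log2 change of 2.62 ± 0.33 (SE, adjusted p = 2.89e-04). The difference between the strains in this change did not pass the test (log2 difference -1.39 ± 0.42, adjusted p = 0.0545, PD minus wild type).

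At day 6, hsp-16.2 had 3.93, 4.62 and 3.95 CPM in krill oil fed PD animals and 2.08, 1.96 and 2.38 CPM in PD controls. In wild type it had 8.02, 7.61 and 7.33 CPM with krill oil and 3.08, 2.75 and 3.68 CPM in controls. Every krill oil fed library again lay above every control of its strain, with a log2 change of 1.00 ± 0.16 (SE, adjusted p = 0.00141) in PD animals and a log2 change of 1.29 ± 0.12 (SE, adjusted p = 1.20e-06) in wild type. At day 1 the PD libraries held 7, 12 and 9 counts with krill oil and 8, 8 and 5 without, and the wild type libraries held 2, 1 and 2 counts with krill oil and 1, 1 and 1 without, too few to be tested for the diet.

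hsp-16.41 followed its neighbour. At day 3 it had 2.54, 2.42 and 2.54 CPM in krill oil fed PD animals, against 0.701, 1.33 and 0.777 CPM in PD controls, and 2.54, 3.63 and 1.60 CPM in krill oil fed wild type, against 0.471, 0.472 and 0.643 CPM in wild type controls. At day 6 it had 6.54, 5.79 and 5.77 CPM in krill oil fed PD animals, against 3.54, 3.60 and 3.57 CPM in PD controls, and 9.74, 10.3 and 8.22 CPM in krill oil fed wild type, against 3.12, 3.01 and 3.59 CPM in wild type controls. No krill oil fed library overlapped a control of its strain and age. The rise with krill oil was a log2 change of 1.38 ± 0.22 (SE, adjusted p = 3.06e-04) in PD animals and a log2 change of 2.28 ± 0.33 (SE, adjusted p = 6.46e-04) in wild type at day 3. At day 6 it was a log2 change of 0.79 ± 0.13 (SE, adjusted p = 0.00129) in PD animals and a log2 change of 1.55 ± 0.13 (SE, adjusted p = 2.27e-07) in wild type, and here the change differed between the strains (log2 difference -0.78 ± 0.17, adjusted p = 0.00140, PD minus wild type).

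At day 1, hsp-16.41 had 0.876, 0.681 and 0.947 CPM in krill oil fed PD animals and 0.467, 0.344 and 0.391 CPM in PD controls, which did not overlap. This rise (log2 change 1.05 ± 0.29, adjusted p = 0.0338) rests on 9 to 20 counts a library, and the call was lost with DESeq2 (adjusted p = 0.248), with the replicate block (adjusted p = 0.0542) and without PD control day 1 replicate 1, 2 or 3 or PD krill oil day 1 replicate 1 or 3 (adjusted p = 0.0642 to 0.125). In wild type at day 1 its libraries held 3, 3 and 1 counts with krill oil and 3, 3 and 0 without, and it was not tested.

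**Figure D2:**
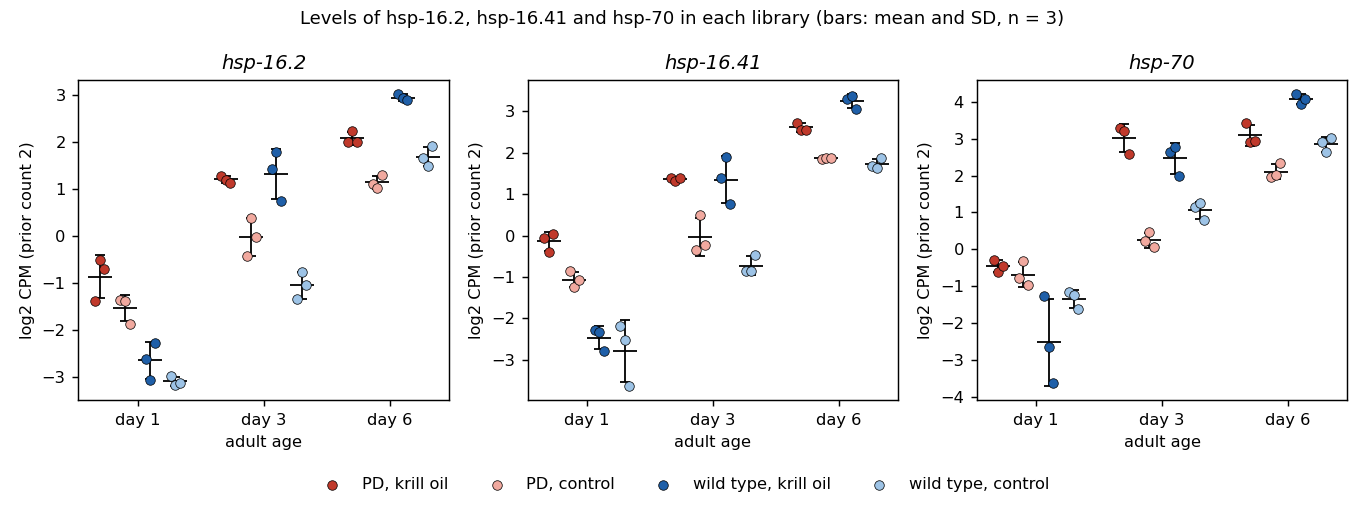
Level of hsp-16.2, hsp-16.41 and hsp-70 in each of the 36 libraries (y axis, log2 CPM with a prior count of 2) at adult day 1, 3 and 6 (x axis), in krill oil fed and control PD animals (dark and light red) and krill oil fed and control wild type (dark and light blue), with the mean and SD of 3 libraries. Within each strain and diet all 3 genes were lowest at day 1, and at day 3 and 6 each krill oil fed library lies above the controls of its strain.

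hsp-70, a heat-inducible cytosolic HSP70, had the largest change of any member with krill oil in PD animals at day 3. It stood at 9.72, 9.08 and 5.94 CPM in krill oil fed PD animals, against 1.09, 1.30 and 0.959 CPM in PD controls. This was a 7.24-fold rise, a log2 change of 2.86 ± 0.21 (SE, adjusted p = 5.48e-07), and even the lowest krill oil fed library was far above the highest control. In wild type at day 3, hsp-70 had 6.18, 6.75 and 3.87 CPM with krill oil and 2.12, 2.29 and 1.67 CPM in controls, a 2.79-fold rise with a log2 change of 1.48 ± 0.23 (SE, adjusted p = 9.30e-04). The change in PD animals exceeded that in wild type (log2 difference 1.37 ± 0.35, adjusted p = 0.0266), a call that was lost without PD control day 3 replicate 1 or 3 or PD krill oil day 3 replicate 1 or 2 or wild type control day 3 replicate 1 (adjusted p = 0.0503 to 0.0675).

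At day 6, hsp-70 had 10.6, 7.37 and 7.63 CPM in krill oil fed PD animals, against 3.79, 3.99 and 4.99 CPM in PD controls. In wild type it had 18.3, 15.3 and 16.6 CPM with krill oil, the highest levels of any group, and 7.39, 6.10 and 8.03 CPM in controls. The diets were apart in both strains, with a log2 change of 1.03 ± 0.17 (SE, adjusted p = 0.00145) in PD animals and a log2 change of 1.24 ± 0.11 (SE, adjusted p = 6.34e-07) in wild type, and the strains did not pass the test of a difference (log2 difference -0.22 ± 0.21, adjusted p = 0.390). In PD animals the change with krill oil was larger at day 3 than at day 1 (log2 difference 2.61 ± 0.43, adjusted p = 2.75e-04), and smaller at day 6 than at day 3 (log2 difference -1.86 ± 0.29, adjusted p = 1.51e-04). In wild type it was larger at day 3 than at day 1 (log2 difference 2.50 ± 0.65, adjusted p = 0.0102, and 4.02 on the log2 scale without wild type krill oil day 1 replicate 1), and day 6 was not shown to differ from day 3 (log2 difference -0.26 ± 0.32, adjusted p = 0.516). At day 1 the diets overlapped in PD animals, with 0.744, 0.576 and 0.651 CPM with krill oil and 0.506, 0.726 and 0.430 CPM in controls. The wild type libraries at day 1 held 8, 2 and 0 counts with krill oil and 8, 11 and 7 in controls.

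F44E5.4 and F44E5.5, the divergent pair of inducible HSP70 genes, were not called for krill oil in wild type at day 6. F44E5.4 then had 4.85, 5.29 and 5.50 CPM in krill oil fed wild type and 5.13, 6.47 and 6.46 CPM in wild type controls, and F44E5.5 had 6.53, 6.23 and 5.84 CPM with krill oil and 6.03, 6.77 and 6.32 CPM in controls. The diets overlapped for both genes, with a log2 change of -0.20 ± 0.12 (SE, adjusted p = 0.164) for F44E5.4 and a log2 change of -0.03 ± 0.10 (SE, adjusted p = 0.791) for F44E5.5. At day 3 both genes were higher in krill oil fed wild type, where F44E5.4 had 3.41, 4.46 and 2.27 CPM, against 0.471, 1.52 and 0.730 CPM in controls, and F44E5.5 had 3.99, 6.58 and 2.21 CPM, against 0.589, 1.31 and 1.11 CPM in controls. The diets did not overlap at day 3, with a log2 change of 1.90 ± 0.38 (SE, adjusted p = 0.00421) for F44E5.4 and a log2 change of 2.09 ± 0.39 (SE, adjusted p = 0.00305) for F44E5.5. The change with krill oil in wild type was smaller at day 6 than at day 3 for F44E5.4 (log2 difference -2.11 ± 0.40, adjusted p = 3.36e-04) and for F44E5.5 (log2 difference -2.13 ± 0.42, adjusted p = 5.60e-04).

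In PD animals the pair rose with krill oil at day 3 and day 6. At day 3, F44E5.4 had 1.56, 2.21 and 2.20 CPM with krill oil and 0.895, 1.12 and 0.731 CPM in controls, and F44E5.5 had 2.28, 1.46 and 2.58 CPM with krill oil and 1.05, 1.55 and 1.05 CPM in controls. F44E5.4 did not overlap between the diets and F44E5.5 did, with a log2 change of 1.09 ± 0.22 (SE, adjusted p = 0.00157) for F44E5.4 and a log2 change of 0.77 ± 0.24 (SE, adjusted p = 0.0218) for F44E5.5. The call of F44E5.5 was lost with DESeq2 (adjusted p = 0.0632), with the replicate block (adjusted p = 0.0505), with all 36 libraries in 1 fit (adjusted p = 0.122) and without PD control day 3 replicate 1 or 3 or PD krill oil day 3 replicate 1 or 3 (adjusted p = 0.0635 to 0.0987). At day 6, F44E5.4 had 3.97, 3.79 and 1.68 CPM with krill oil and 1.02, 2.07 and 1.46 CPM in controls, and F44E5.5 had 4.99, 5.19 and 1.68 CPM with krill oil and 1.64, 1.72 and 2.06 CPM in controls. In both genes 2 of the krill oil fed libraries were high and replicate 3 lay among the controls.

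The rise of the pair in PD animals at day 6 was a log2 change of 1.09 ± 0.35 (SE, adjusted p = 0.0354) for F44E5.4 and a log2 change of 1.17 ± 0.37 (SE, adjusted p = 0.0326) for F44E5.5. The first call was lost without PD control day 6 replicate 1 or 3 or PD krill oil day 6 replicate 1 or 2 (adjusted p = 0.0910 to 0.121), and the second without PD control day 6 replicate 1, 2 or 3 or PD krill oil day 6 replicate 1 or 2 (adjusted p = 0.0631 to 0.113). At day 6 the strains differed in this change, for F44E5.4 (log2 difference 1.27 ± 0.37, adjusted p = 0.00892) and for F44E5.5 (log2 difference 1.19 ± 0.39, adjusted p = 0.0171), and the call of F44E5.5 was lost without PD krill oil day 6 replicate 2 (adjusted p = 0.0539). At day 1, F44E5.4 was higher in krill oil fed PD animals at 0.919, 0.524 and 0.769 CPM, against 0.195, 0.344 and 0.274 CPM in PD controls, with a log2 change of 1.44 ± 0.36 (SE, adjusted p = 0.0203). That call was lost with DESeq2 (adjusted p = 0.122), with all 36 libraries in 1 fit (adjusted p = 0.0629) and without PD control day 1 replicate 1 or 3 or PD krill oil day 1 replicate 1 or 3 (adjusted p = 0.0517 to 0.0951). F44E5.5 had 1.14, 0.681 and 0.828 CPM and 0.389, 0.535 and 0.665 CPM in the same groups, which did not overlap but did not pass the test (log2 change 0.75 ± 0.31, adjusted p = 0.149).

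**Figure D3:**
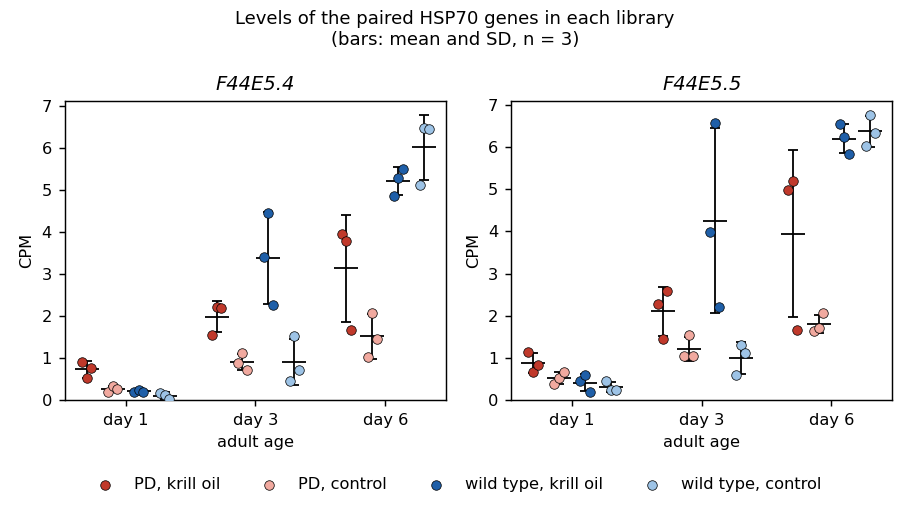
Level of F44E5.4 and F44E5.5 in each of the 36 libraries (y axis, CPM) at adult day 1, 3 and 6 (x axis), in krill oil fed and control PD animals (dark and light red) and krill oil fed and control wild type (dark and light blue), with the mean and SD of 3 libraries. At day 6 both wild type groups lie together, and 2 of 3 krill oil fed PD libraries lie above the PD controls.

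hsp-12.3, which encodes a short HSP12 protein, was lower with krill oil at day 1. It had 0.963, 0.471 and 0.651 CPM in krill oil fed PD animals at day 1, against 2.33, 2.37 and 3.79 CPM in PD controls, and 0.665, 0.516 and 0.382 CPM in krill oil fed wild type, against 1.47, 2.08 and 3.53 CPM in wild type controls. The diets did not overlap in either strain. hsp-12.3 was 3.96-fold lower in PD animals, a log2 change of -1.98 ± 0.30 (SE, adjusted p = 0.00109), and 4.43-fold lower in wild type, a log2 change of -2.15 ± 0.40 (SE, adjusted p = 0.0183), and the strains did not pass the test of a difference (log2 difference 0.15 ± 0.55, adjusted p = 0.960). The call in wild type was lost with the replicate block (adjusted p = 0.0519) and without wild type krill oil day 1 replicate 1, 2 or 3 (adjusted p = 0.0587 to 0.0998). The control libraries of day 1 were the highest of all for this gene, and the other groups had means of 0.521 ± 0.142 CPM (krill oil fed wild type at day 1) to 1.23 ± 0.326 CPM (krill oil fed wild type at day 6, SD, n = 3 each). The change with krill oil differed between day 3 and day 1 in PD animals (log2 difference 2.24 ± 0.44, adjusted p = 0.00121), and in wild type (log2 difference 2.03 ± 0.59, adjusted p = 0.0192), where the call was lost without wild type krill oil day 3 replicate 2 or 3 (adjusted p = 0.0609 to 0.0876).

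At day 1 the summed level of 5 hypodermal markers was 736 to 939.6 CPM in krill oil fed PD animals and 1350 to 1557 CPM in PD controls, and that of 5 body wall muscle markers was 3816 to 4524 CPM and 5528 to 5742 CPM in the same groups, with 5 of 5 muscle markers and 1 of 4 hypodermal markers tested lower. At day 3 the muscle markers stood at 3277 to 3457 CPM in krill oil fed PD animals and 1673 to 1763 CPM in PD controls, and at 3185 to 3559 CPM in krill oil fed wild type and 1658 to 2409 CPM in wild type controls, with 5 of 5 higher with krill oil in each strain. At day 6 they stood at 2578 to 3688 CPM in krill oil fed PD animals and 1265 to 1369 CPM in PD controls (5 of 5 higher), and at 2745 to 2990 CPM in krill oil fed wild type and 2092 to 2188 CPM in wild type controls (4 higher, 1 lower). The hypodermal markers stood at 253 to 281 CPM and 133 to 149.8 CPM in the PD groups of day 3 (5 of 5 higher), and at 330.2 to 413 CPM in krill oil fed wild type and 152 to 271 CPM in wild type controls (4 of 5 higher). At day 6 they stood at 307 to 655 CPM in krill oil fed PD animals, against 76.4 to 89.2 CPM in PD controls (5 of 5 higher), and at 337 to 375 CPM in krill oil fed wild type, against 133 to 156 CPM in wild type controls (4 higher, 1 lower). The sum of 6 intestinal markers was lower with krill oil in every library of day 3 and 6, at 66584 to 70609 CPM in krill oil fed PD animals and 88028 to 93460 CPM in PD controls at day 3, and 55276 to 64089 CPM in krill oil fed wild type and 73115 to 77040 CPM in wild type controls. In the older animals of day 6 the intestinal sum was 43494 to 46785 CPM in krill oil fed PD animals and 47783 to 49122 CPM in PD controls, and 41310 to 49069 CPM in krill oil fed wild type and 63549 to 65774 CPM in wild type controls. Singly, 2 of them rose and 3 fell in each strain at day 3, and at day 6 3 rose and 1 fell in PD animals and 1 rose and 5 fell in wild type. Among 8 sperm markers, 6 of 6 tested were higher with krill oil in PD animals at day 6 and 6 of 7 in wild type. In wild type at day 3, 5 of 6 were higher. Of all genes, 24.8% rose in PD animals at day 6, 30.9% in wild type at day 6 and 22.0% in wild type at day 3. The other counts of markers for the diet are likewise to be read beside the shares of all genes given above. In wild type at day 1 the hypodermal sum was 765 to 790 CPM with krill oil and 812 to 1096 CPM in controls. The muscle sum was 3703 to 3839 CPM and 4077 to 4834 CPM in the same groups. The part of all these tissues in the changes of the heat shock genes was not tested.

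hsp-17, the gene of the aggregate-forming small heat shock protein, turned its direction between ages and strains. In PD animals it was lower with krill oil at day 1, at 10.4, 11.05 and 12.3 CPM with krill oil and 18.2, 19.7 and 20.7 CPM in controls (log2 change -0.80 ± 0.09, adjusted p = 2.11e-04). It was also lower at day 3, at 12.8, 13.3 and 14.0 CPM with krill oil and 21.1, 18.6 and 20.5 CPM in controls (log2 change -0.58 ± 0.07, adjusted p = 3.76e-05). At day 6 it was higher, at 21.2, 19.9 and 16.7 CPM with krill oil and 11.96, 10.4 and 14.7 CPM in controls (log2 change 0.67 ± 0.14, adjusted p = 0.00546). The diets did not overlap at any age in PD animals. The change with krill oil at day 6 exceeded that at day 3 (log2 difference 1.23 ± 0.16, adjusted p = 3.00e-05).

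In wild type hsp-17 was not called at day 1, at 10.6, 11.3 and 8.15 CPM with krill oil and 13.2, 13.1 and 9.42 CPM in controls, nor at day 3, at 15.3, 16.481 and 12.01 CPM with krill oil and 13.4, 14.5 and 13.6 CPM in controls. At day 6 it was lower with krill oil, at 20.2, 18.4 and 20.2 CPM, against 29.0, 29.6 and 29.6 CPM in wild type controls, with no overlap (log2 change -0.57 ± 0.06, adjusted p = 5.60e-06). The strains thus changed in opposite directions at day 6, and PD minus wild type differed (log2 difference 1.23 ± 0.16, adjusted p = 2.09e-05). The change also differed at day 3 (log2 difference -0.67 ± 0.14, adjusted p = 0.00938). At day 6 the krill oil fed groups averaged 19.2 ± 2.31 CPM in PD animals and 19.6 ± 1.08 CPM in wild type, and the controls 12.4 ± 2.21 CPM in PD animals and 29.4 ± 0.316 CPM in wild type (SD, n = 3 each). For wild type of day 6 the summed level of 6 neuronal markers was 246 to 270.3 CPM with krill oil and 346 to 368 CPM in controls (5 of 6 lower), and that of 6 later embryo markers 14.8 to 17.6 CPM and 29.9 to 31.2 CPM in the same groups (4 of 4 tested lower), and their part in the fall of hsp-17 was not tested.

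sip-1, the abundant small heat shock protein gene of oocytes and embryos, was lower with krill oil where it changed. At day 3 it had 1640, 1638 and 1776 CPM in krill oil fed PD animals, against 2397, 2267 and 2128 CPM in PD controls, and 1749, 1453 and 1672 CPM in krill oil fed wild type, against 2418, 2765 and 2168 CPM in wild type controls. The diets did not overlap, with a log2 change of -0.43 ± 0.04 (SE, adjusted p = 7.49e-06) in PD animals and a log2 change of -0.59 ± 0.10 (SE, adjusted p = 0.00157) in wild type. At day 6 it had 1615, 2363 and 1764 CPM in krill oil fed PD animals, of which replicate 2 lay nearest to the controls, and 2646, 2648 and 2700 CPM in PD controls, with a log2 change of -0.44 ± 0.13 (SE, adjusted p = 0.0279). That call was lost without PD control day 6 replicate 1 or 3 (adjusted p = 0.0665 to 0.0688). In wild type at day 6 the diets overlapped, at 1984, 1688 and 1997 CPM with krill oil and 2087, 1925 and 1851 CPM in controls (log2 change -0.04 ± 0.07, adjusted p = 0.627). The strains differed in this change at day 6 (log2 difference -0.42 ± 0.16, adjusted p = 0.0393), a call that was lost without PD control day 6 replicate 1, 2 or 3 or PD krill oil day 6 replicate 1 or 3 or wild type control day 6 replicate 2 or wild type krill oil day 6 replicate 1 or 3 (adjusted p = 0.0576 to 0.0818).

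At day 1 sip-1 had 1814, 1822 and 1788 CPM in krill oil fed PD animals and 1959, 2064 and 2191 CPM in PD controls, a small difference that did not overlap (log2 change -0.19 ± 0.06, adjusted p = 0.0373) and whose call was lost with all 36 libraries in 1 fit (adjusted p = 0.190) and without PD control day 1 replicate 2 or 3 or PD krill oil day 1 replicate 1, 2 or 3 (adjusted p = 0.0646 to 0.162). In wild type at day 1 it had 1620, 1657 and 1598 CPM with krill oil and 1699, 1592 and 1664 CPM in controls, with a log2 change of -0.02 ± 0.05 (SE, adjusted p = 0.820). In wild type the change with krill oil was lower at day 3 than at day 1 (log2 difference -0.57 ± 0.12, adjusted p = 0.00267), and higher at day 6 than at day 3 (log2 difference 0.54 ± 0.12, adjusted p = 0.00130). The summed level of 15 oocyte and early embryo markers at day 3 was 15608 to 16481 CPM in krill oil fed PD animals and 16374 to 16809 CPM in PD controls, and 14362 to 15919 CPM in krill oil fed wild type and 17673 to 18666 CPM in wild type controls, where 10 of 15 markers fell in wild type and 2 fell and 2 rose in PD animals. At day 6 the sum was 14196 to 16152 CPM in krill oil fed PD animals and 18417 to 18783 CPM in PD controls, where 7 of 15 fell. In wild type at day 6 the sum was higher with krill oil, at 15056 to 16281 CPM, against 13213 to 14001 CPM in controls. The level of sip-1 was not called for the diet there. In wild type at day 1 the sum was lower with krill oil, at 15549 to 15770 CPM, against 15807 to 15989 CPM in controls. There too sip-1 was not called. In PD animals at day 1 the sums of the diets overlapped. The part of germline and embryos in the level of sip-1 was not tested.

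**Figure D4:**
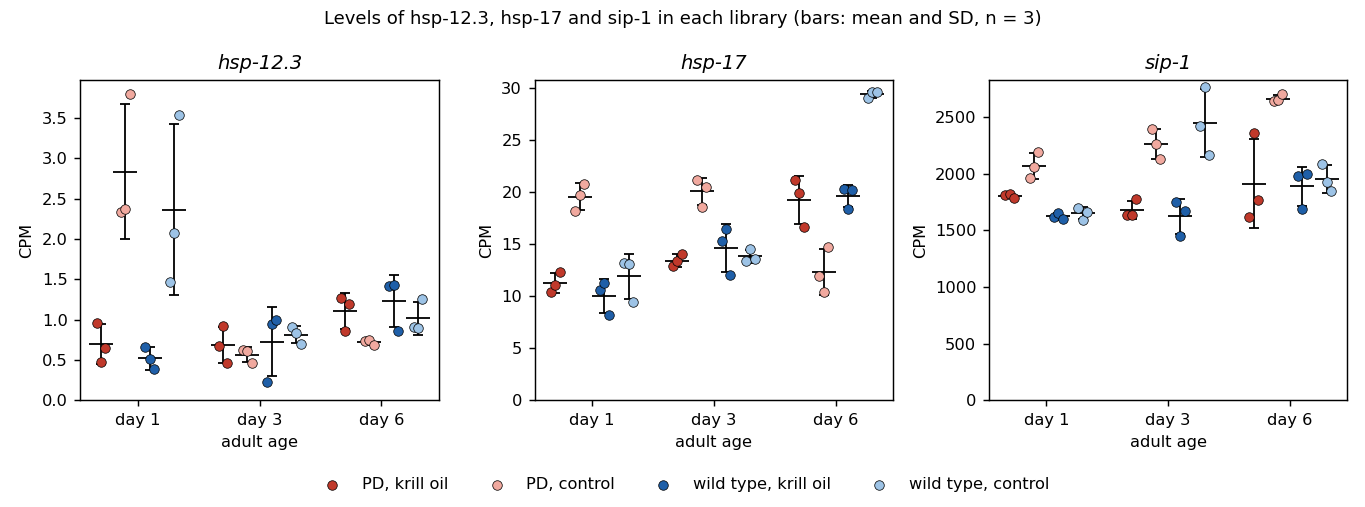
Level of hsp-12.3, hsp-17 and sip-1 in each of the 36 libraries (y axis, CPM, each panel from 0) at adult day 1, 3 and 6 (x axis), in krill oil fed and control PD animals (dark and light red) and krill oil fed and control wild type (dark and light blue), with the mean and SD of 3 libraries. hsp-12.3 is highest in both control groups of day 1, hsp-17 is highest in wild type controls of day 6, and sip-1 stays between 1453 and 2765 CPM.

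Age was followed within each strain and diet, in a fit of the 18 libraries of the strain. The 5 inducible genes rose between day 1 and day 3 in every series. From day 1 to day 3, 5 of 8 members rose and 1 fell in PD controls (hsp-12.3), where 26.2% of all genes rose and 21.5% fell, and 5 rose and 0 fell in krill oil fed PD animals, where 25.9% and 23.3% did. In wild type controls 6 of 8 rose and 1 fell (hsp-12.3), where 11.4% of all genes rose and 12.3% fell, and in krill oil fed wild type 6 rose and 0 fell, where 21.8% and 20.1% did. Between day 3 and day 6, 4 of 8 rose and 1 fell in PD controls (hsp-17), where 28.4% of all genes rose and 33.3% fell, and 4 rose in krill oil fed PD animals (hsp-16.2, hsp-16.41, F44E5.5 and hsp-17), where 18.3% and 16.8% did. In wild type controls 6 rose and 1 fell (sip-1), where 36.8% of all genes rose and 28.5% fell, and 4 rose in krill oil fed wild type (hsp-16.2, hsp-16.41, hsp-70 and hsp-17), where 10.3% and 11.8% did. These comparisons share libraries with one another and with the comparisons of the diets.

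From day 1 to day 3, hsp-16.2, hsp-16.41, hsp-70, F44E5.4 and F44E5.5 rose in all 4 series of strain and diet. In PD controls the changes were 1.78 for hsp-16.2, 1.24 for hsp-16.41 and 1.02 for hsp-70 on the log2 scale, and in krill oil fed PD animals 2.20, 1.57 and 3.62 for the same genes. The call of hsp-70 in PD controls (adjusted p = 0.0116) was lost without PD control day 1 replicate 3 or PD control day 3 replicate 2 (adjusted p = 0.0539 to 0.0554). In wild type the day 1 counts were so few that ratios of summed counts, each over its libraries' effective sizes, are given. hsp-16.2 had a ratio of day 3 to day 1 of 33.8 (95% counting interval 14.2 to 105) with krill oil, 152 counts at day 3 and 5 at day 1, and of 11.4 (95% counting interval 3.60 to 57.9) in controls, 36 counts at day 3 and 3 at day 1. For hsp-70 the ratio was 36.97 (95% counting interval 19.9 to 77.8) with krill oil and 6.36 (95% counting interval 4.19 to 10.01) in controls. The krill oil fed wild type libraries of day 1 held 8, 2 and 0 counts of hsp-70, and its log2 change of 5.15 was 6.71 without replicate 1 of them, a larger ratio than the counting interval holds. These intervals cover counting error only.

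F44E5.4 changed by 1.75 on the log2 scale in PD controls and 1.41 in krill oil fed PD animals between day 1 and day 3, and F44E5.5 by 1.21 and 1.23 in the same groups. The calls of F44E5.5 were lost in PD controls without PD control day 1 replicate 1 or 2 or PD control day 3 replicate 2 (adjusted p = 0.0723 to 0.132), in krill oil fed PD animals without PD krill oil day 1 replicate 2 or PD krill oil day 3 replicate 3 (adjusted p = 0.0631 to 0.0646) and in wild type controls without wild type control day 1 replicate 2 or wild type control day 3 replicate 2 (adjusted p = 0.0527 to 0.0607). hsp-12.3 fell between day 1 and day 3 in PD controls (log2 change -2.30 ± 0.27, adjusted p = 1.19e-06), and in wild type controls (log2 change -1.56 ± 0.34, adjusted p = 0.00307). It did not pass the test in krill oil fed PD animals (log2 change -0.06 ± 0.34, adjusted p = 0.895) or krill oil fed wild type (log2 change 0.47 ± 0.47, adjusted p = 0.444), in which it was low from day 1. Over the same step the mean sum of 5 hypodermal markers went from 1448 to 144 CPM in PD controls and from 990 to 197 CPM in wild type controls. With krill oil it went from 854 to 266 CPM in PD animals and from 776 to 379 CPM in wild type. The part of tissues in the changes with age was not tested. Of the 4 series, sip-1 was called between these ages in wild type controls, where it rose (log2 change 0.57 ± 0.08, adjusted p = 1.07e-04), and hsp-17 in krill oil fed wild type, where it rose (log2 change 0.53 ± 0.14, adjusted p = 0.00516).

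After day 3, hsp-16.41 rose further in all 4 series, by 1.93 in PD controls, 1.30 in krill oil fed PD animals, 2.59 in wild type controls and 1.84 in krill oil fed wild type on the log2 scale, and hsp-16.2 did so too, by 0.94 to 2.93. hsp-70 rose in PD controls (log2 change 1.93 ± 0.23, adjusted p = 1.03e-06), and did not pass the test in krill oil fed PD animals (log2 change 0.07 ± 0.17, adjusted p = 0.770), whose level at day 3 was already near that of day 6. F44E5.4 and F44E5.5 rose in wild type controls (log2 change 2.73 ± 0.29, adjusted p = 1.07e-06 for F44E5.4, and log2 change 2.65 ± 0.32, adjusted p = 2.95e-06 for F44E5.5), and neither was called in krill oil fed wild type (0.61 and 0.52) or in PD controls (0.73 and 0.57). In krill oil fed PD animals F44E5.5 alone of the pair was called (log2 change 0.94 ± 0.31, adjusted p = 0.0241), a call lost without PD krill oil day 3 replicate 2 or PD krill oil day 6 replicate 1 or 2 (adjusted p = 0.0778 to 0.153). The change with krill oil between day 3 and day 6 was lower in wild type for hsp-16.2 (log2 difference -1.35 ± 0.33, adjusted p = 0.00267), and in PD animals for hsp-16.41 (log2 difference -0.63 ± 0.23, adjusted p = 0.0465), a call lost with DESeq2 (adjusted p = 0.0886), with only all-zero genes removed (adjusted p = 0.115), with the replicate block (adjusted p = 0.0583), with all 36 libraries in 1 fit (adjusted p = 0.108) and without PD control day 3 replicate 1 or 3 or PD control day 6 replicate 1, 2 or 3 or PD krill oil day 3 replicate 1, 2 or 3 or PD krill oil day 6 replicate 2 (adjusted p = 0.0541 to 0.143).

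hsp-17 went opposite ways in the controls after day 3. It rose in wild type controls (log2 change 1.09 ± 0.13, adjusted p = 2.68e-06) and fell in PD controls (log2 change -0.68 ± 0.11, adjusted p = 4.93e-05). In krill oil fed animals it rose in PD animals (log2 change 0.55 ± 0.11, adjusted p = 0.00112), and in wild type (log2 change 0.42 ± 0.13, adjusted p = 0.0286), the wild type call being lost without wild type krill oil day 3 replicate 3 or wild type krill oil day 6 replicate 1 or 3 (adjusted p = 0.0718 to 0.136). In wild type the change with krill oil at day 6 was below that at day 3 (log2 difference -0.66 ± 0.18, adjusted p = 0.00624). sip-1 rose in PD controls (log2 change 0.26 ± 0.10, adjusted p = 0.0317), a call lost without PD control day 3 replicate 2 or 3 or PD control day 6 replicate 2 or 3 (adjusted p = 0.0509 to 0.0757), and fell in wild type controls (log2 change -0.32 ± 0.08, adjusted p = 0.00320). Whether the controls of the strains differed in these changes over age was not tested.

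The order of the groups differed between the members. For hsp-16.2, hsp-16.41 and hsp-70 the highest mean was that of krill oil fed wild type at day 6 (7.65 ± 0.351, 9.42 ± 1.08 and 16.7 ± 1.52 CPM, SD, n = 3 each), followed by krill oil fed PD animals at day 6 (4.16 ± 0.393, 6.03 ± 0.441 and 8.53 ± 1.79 CPM), and the first of these did not overlap the second in any of the 3 genes. The lowest means of these genes were those of wild type at day 1 with or without krill oil, which overlapped. For F44E5.4 and F44E5.5 wild type controls and krill oil fed wild type at day 6 had the highest means (6.02 ± 0.771 and 5.21 ± 0.332 CPM for F44E5.4), with overlap between them. For sip-1 PD controls at day 6 had the highest mean (2665 ± 30.8 CPM) and krill oil fed wild type at day 3 the lowest (1624 ± 153 CPM), and all neighbours in the order overlapped but krill oil fed PD animals at day 1 and at day 3.

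PD animals were compared with wild type at the same age and diet. At day 1 in krill oil fed animals, 2 of 7 members tested were higher in PD animals (hsp-16.41 and F44E5.4) and 0 were lower, where 2.33% of all genes were higher and 2.74% lower, and in controls 3 were higher (hsp-16.41, hsp-17 and sip-1) and 0 lower, where 5.88% and 5.01% were. At day 3, 0 of 8 were higher and 1 lower (F44E5.5) in krill oil fed PD animals, where 8.30% of all genes were higher and 7.35% lower, and 2 were higher (hsp-16.2 and hsp-17) and 1 lower (hsp-70) in PD controls, where 21.5% and 16.3% were. At day 6, 0 were higher and 3 lower (hsp-16.2, hsp-16.41 and hsp-70) in krill oil fed PD animals, where 1.23% of all genes were higher and 2.1% lower. In controls at day 6, 1 was higher (sip-1) and 5 lower (hsp-16.2, hsp-70, F44E5.4, F44E5.5 and hsp-17) in PD animals, where 30.2% and 43.5% of all genes were, and the median of all genes was -0.25 on the log2 scale (-0.10 with RLE factors). No member changed its direction with RLE factors.

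In krill oil fed animals of day 6, where few genes differed between the strains, 3 of the heat-inducible genes were lower in PD animals: hsp-16.2 (log2 change -0.87 ± 0.13, adjusted p = 8.69e-04), hsp-16.41 (log2 change -0.64 ± 0.11, adjusted p = 0.00364) and hsp-70 (log2 change -0.97 ± 0.14, adjusted p = 7.24e-04). F44E5.4 and F44E5.5 were not called there. The libraries did not overlap in any of the 3 genes called, as their values above show. How many of all genes separate in this way was not counted. At day 1 hsp-16.41 was higher in PD animals, and had 0.876, 0.681 and 0.947 CPM in krill oil fed PD animals, against 0.125, 0.119 and 0.0637 CPM in krill oil fed wild type (log2 change 2.89 ± 0.49, adjusted p = 0.00621). In controls of day 1 it had 0.467, 0.344 and 0.391 CPM in PD animals, against 0.138, 0.0931 and 0 CPM in wild type (log2 change 2.38 ± 0.54, adjusted p = 0.0155), a call lost without PD control day 1 replicate 1 (adjusted p = 0.0530). F44E5.4, at 0.208, 0.238 and 0.191 CPM in krill oil fed wild type at day 1, was higher in krill oil fed PD animals (log2 change 1.76 ± 0.41, adjusted p = 0.0276), and that call was lost with DESeq2 (adjusted p = 0.0881), with the replicate block (adjusted p = 0.0501), with all 36 libraries in 1 fit (adjusted p = 0.0508) and without PD krill oil day 1 replicate 1 or 3 or wild type krill oil day 1 replicate 1, 2 or 3 (adjusted p = 0.0633 to 0.101).

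At day 3, hsp-16.2 was higher in PD controls than in wild type controls (log2 change 1.18 ± 0.35, adjusted p = 0.0168), and hsp-70 was lower (log2 change -0.84 ± 0.29, adjusted p = 0.0352). The first call was lost without PD control day 3 replicate 2 or wild type control day 3 replicate 1 (adjusted p = 0.0613 to 0.0920), and the second without PD control day 3 replicate 1 or 3 or wild type control day 3 replicate 1 or 2 (adjusted p = 0.0777 to 0.104). hsp-17 was higher in PD controls at day 1 (log2 change 0.72 ± 0.14, adjusted p = 0.00746), and at day 3 (log2 change 0.53 ± 0.10, adjusted p = 8.99e-04), and lower at day 6 (log2 change -1.26 ± 0.11, adjusted p = 2.36e-07). Among krill oil fed animals it was not called at any age. F44E5.5 was lower in krill oil fed PD animals at day 3 (log2 change -1.05 ± 0.33, adjusted p = 0.0469), a call lost with the replicate block (adjusted p = 0.0666) and without PD krill oil day 3 replicate 1, 2 or 3 or wild type krill oil day 3 replicate 1 or 2 (adjusted p = 0.0632 to 0.242).

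Among the controls of day 6, F44E5.4 (log2 change -1.99 ± 0.27, adjusted p = 1.30e-05), F44E5.5 (log2 change -1.83 ± 0.29, adjusted p = 5.04e-05), hsp-70 (log2 change -0.76 ± 0.16, adjusted p = 5.29e-04) and hsp-16.2 (log2 change -0.57 ± 0.15, adjusted p = 0.00343) were lower in PD animals. The call of hsp-16.2 was lost with DESeq2 (adjusted p = 0.104) and without wild type control day 6 replicate 3 (adjusted p = 0.0587). The controls of day 6 differed between the strains in other respects too. The summed level of 6 neuronal markers was 237 to 245 CPM in PD controls, against 346 to 368 CPM in wild type controls, that of 3 dopaminergic markers was 2.59 to 3.66 CPM, against 7.18 to 7.98 CPM, and that of 6 later embryo markers was 10.02 to 10.4 CPM (med-1 at 0 in all 3 PD libraries), against 29.9 to 31.2 CPM. For the neuronal and dopaminergic markers, wild type controls of day 6 had the highest means of the 12 groups (357 and 7.53 CPM). The means were 243 and 3.70 CPM in PD controls of day 1. Krill oil fed wild type at day 6 had 255 and 3.95 CPM. The oocyte and early embryo sum was 18417 to 18783 CPM in PD controls, against 13213 to 14001 CPM in wild type controls. Their part in the differences between the heat shock genes was not tested.

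**Figure D5:**
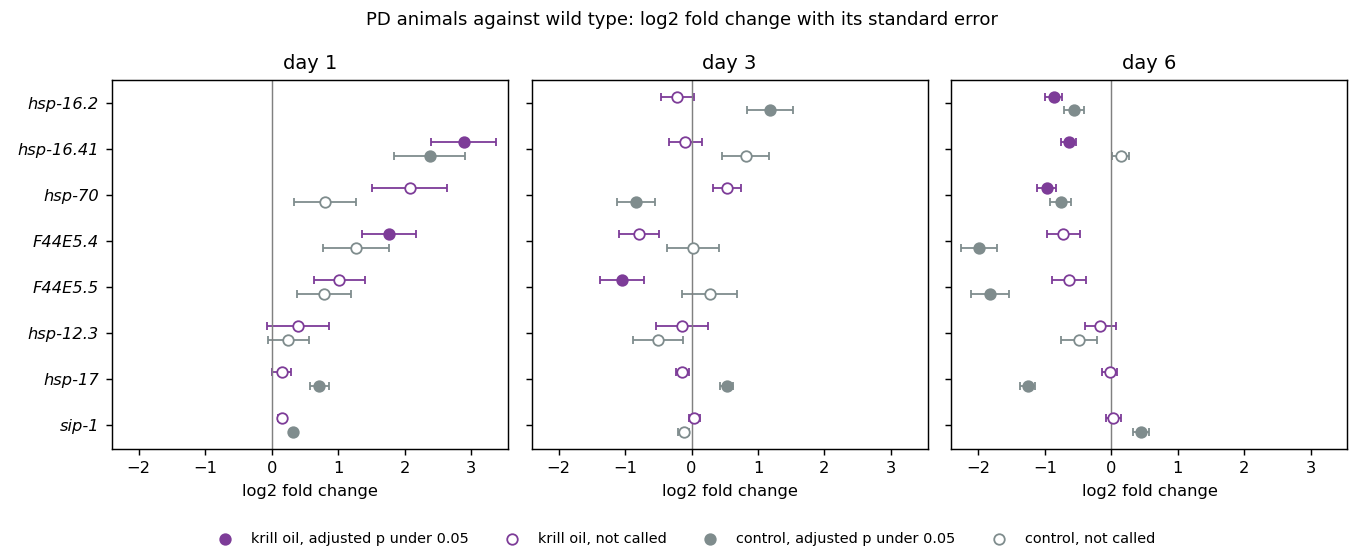
Log2 fold change of PD animals against wild type (x axis) for the 8 members tested (y axis) at day 1, 3 and 6, in krill oil fed animals (purple) and controls (grey), with standard errors, points filled at an adjusted p under 0.05 and no point where a member was not tested. At day 6 hsp-16.2 and hsp-70 lie left of 0 under both diets, and F44E5.4, F44E5.5 and hsp-17 lie far left of 0 in controls.

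The changes with krill oil were compared between the strains and between ages in tests of their difference, whose values stand with each gene above. At day 1, 0 of 7 members differed between PD animals and wild type in their change with edgeR (2 at an unadjusted p under 0.05, hsp-17 and sip-1, and 0 with DESeq2), where 0.0345% of all genes had a higher and 0.0552% a lower change in PD animals. At day 3, hsp-70 had a higher and hsp-17 a lower change in PD animals, where 3.40% and 6.20% of all genes had. At day 6, 3 of 8 were higher (F44E5.4, F44E5.5 and hsp-17) and 2 lower (hsp-16.41 and sip-1), where 34.5% and 25.1% of all genes were and the median of all genes was 0.22 on the log2 scale (0.09 with RLE factors). Of all genes called there, 57.9% were higher, and 42.6% with DESeq2. The 5 of 8 members called are a share near that of all genes at that age.

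Between day 1 and day 3 the change with krill oil was higher at day 3 for 2 of 8 members in PD animals (hsp-70 and hsp-12.3) and lower for 0, where 9.59% and 9.53% of all genes were, and in wild type it was higher for 2 (hsp-70 and hsp-12.3) and lower for 1 (sip-1), where 13.5% and 10.3% were. Between day 3 and day 6 it was higher for 1 (hsp-17) and lower for 2 (hsp-16.41 and hsp-70) in PD animals, where 18.3% and 14.9% of all genes were. In wild type it was higher for 1 (sip-1) and lower for 4 (hsp-16.2, F44E5.4, F44E5.5 and hsp-17), where 23.5% and 28.5% were.

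Other genes of the protein folding network were followed as lists, whose counts stand beside the shares of all genes given above: in PD animals 21.2% rose and 19.9% fell at day 3, and 24.8% rose and 12% fell at day 6, and in wild type 22.0% rose and 14.1% fell at day 3, and 30.9% rose and 32.6% fell at day 6. Over all genes the median change was -0.02 to 0.05 on the log2 scale in the 6 comparisons of the diets. Of 10 constitutive and organellar chaperones, which fold proteins in unstressed cells, 4 rose and 0 fell with krill oil in PD animals at day 3, and 7 rose and 1 fell in wild type at day 6, with a median log2 fold change of 0.04 and 0.18. The mitochondrial HSP70 hsp-6 rose in both (log2 change 0.22, adjusted p = 3.61e-05 in PD animals at day 3, and log2 change 0.43, adjusted p = 1.64e-06 in wild type at day 6), as did the mitochondrial chaperonin hsp-60 (log2 change 0.25, adjusted p = 1.38e-05, and log2 change 0.41, adjusted p = 3.70e-06). At day 3 in wild type 2 rose (hsp-3, log2 change 0.18, adjusted p = 0.00975, and hsp-60, log2 change 0.22, adjusted p = 0.0101), at day 6 in PD animals 1 rose (hsp-3, log2 change 0.36, adjusted p = 0.00498), and at day 1 none was called in either strain. Of 8 subunits of the cytosolic chaperonin, 4 rose in PD animals at day 3 and 4 in wild type at day 6, with medians of 0.07 and 0.08, and none was called in the other 4 comparisons of the diets.

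Of 20 co-chaperones, 3 rose and 6 fell with krill oil in PD animals at day 3 and 4 rose and 1 fell at day 6, and in wild type 4 rose and 1 fell at day 3 and 9 rose and 4 fell at day 6. In PD animals at both ages and in wild type at day 3 the share of co-chaperones that rose was below that of all genes, and their median log2 fold change was -0.02 to 0.03 over these 4 comparisons. At day 1, 1 was lower in PD animals (dnj-20, a DNAJ protein, log2 change -0.26, adjusted p = 0.00428) and none was called in wild type. unc-23, a BAG-domain co-chaperone of HSP70 in muscle, rose in PD animals at day 3 (log2 change 0.66, adjusted p = 5.79e-06) and at day 6 (log2 change 0.66, adjusted p = 0.00367) and in wild type at day 3 (log2 change 0.72, adjusted p = 0.00145). Of 11 regulators of the heat shock response, 0 rose and 5 fell in PD animals at day 3, 1 rose and 3 fell at day 6, and in wild type 1 rose and 3 fell at day 3 and 2 rose and 5 fell at day 6, with medians of -0.13 to -0.05. At day 1, 1 fell in each strain, daf-16 (log2 change -0.30, adjusted p = 7.16e-04 in PD animals, and log2 change -0.16, adjusted p = 0.0315 in wild type). The histone demethylase jmjd-3.1, which keeps heat shock genes inducible, rose in wild type at day 3 (log2 change 0.75, adjusted p = 3.08e-04) and fell there at day 6 (log2 change -1.06, adjusted p = 1.13e-07), and rose in PD animals at day 6 (log2 change 0.40, adjusted p = 0.0373).

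The small heat shock genes outside the members went different ways by age. Of 9 listed, 5 or 6 could be tested for the diet. At day 1, hsp-12.2, a close relative of hsp-12.3, fell in PD animals (log2 change -0.79, adjusted p = 2.70e-04) and wild type (log2 change -0.63, adjusted p = 0.0142), and hsp-25 fell in PD animals (log2 change -0.26, adjusted p = 0.00683). At day 3, 2 rose in PD animals (hsp-43, log2 change 0.54, adjusted p = 9.25e-07, and hsp-25, log2 change 0.22, adjusted p = 0.00432) and 3 rose in wild type (hsp-43, log2 change 0.80, adjusted p = 6.84e-05, hsp-12.1, log2 change 1.44, adjusted p = 0.00104, and hsp-12.2, log2 change 0.51, adjusted p = 0.0365). At day 6, 4 rose and 0 fell in PD animals, led by hsp-12.2 (log2 change 1.55, adjusted p = 3.76e-04) and hsp-12.1 (log2 change 1.98, adjusted p = 0.00251). Of those tested in wild type at day 6, 4 fell and 0 rose, among them hsp-12.2 (log2 change -1.01, adjusted p = 2.17e-07) and hsp-12.1 (log2 change -1.46, adjusted p = 3.38e-05). Of 14 stress genes of other pathways, 9 rose and 1 fell with krill oil in PD animals at day 3 and 5 rose and 3 fell at day 6, and in wild type 5 rose and 2 fell at day 3 and 5 rose and 3 fell at day 6. At day 1, 4 rose and 1 fell in PD animals, and 1 rose and 1 fell in wild type. Among them gst-4, a glutathione transferase, rose in PD animals at day 3 (log2 change 1.40, adjusted p = 5.58e-07) and day 6 (log2 change 1.25, adjusted p = 3.12e-04) and in wild type at day 3 (log2 change 2.11, adjusted p = 5.48e-06) and day 6 (log2 change 0.94, adjusted p = 7.14e-06). The metallothionein genes mtl-1 and mtl-2 rose in PD animals at day 1 (log2 change 2.32, adjusted p = 7.70e-04, and log2 change 1.24, adjusted p = 4.53e-04) and fell there at day 6 (log2 change -1.59, adjusted p = 5.33e-04, and log2 change -0.90, adjusted p = 3.05e-04), and fell in wild type at day 3 (log2 change -2.21, adjusted p = 1.06e-04, and log2 change -1.25, adjusted p = 2.38e-04). irg-4, an infection response gene, rose in PD animals at day 3 (log2 change 0.95, adjusted p = 3.33e-06) and fell at day 6 (log2 change -1.32, adjusted p = 6.16e-04).

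Over the 36 libraries, log2 CPM of the inducible members moved together, with Pearson r of 0.978 between hsp-16.2 and hsp-16.41, 0.973 between F44E5.4 and F44E5.5, 0.936 between hsp-16.2 and hsp-70, and 0.899 between hsp-70 and F44E5.5. hsp-17 had r of 0.507 to 0.626 with these 5 genes, hsp-12.3 of -0.260 to -0.083, and sip-1 of 0.058 to 0.156. These values describe libraries that share 12 groups and the same scaling. How counts divide between the near-identical F44E5.4 and F44E5.5 is uncertain, so their r may not be that of independent measurements. Among 8760 genes with a mean of at least 5 CPM, the closest to the mean of the 4 hsp-16 members (of which hsp-16.2 and hsp-16.41 carry nearly all counts) were ttr-51 (r = 0.9498), C25E10.8 (r = 0.947) and ccg-1 (r = 0.940), and those closest to hsp-70 were F13D12.3 (r = 0.932), Y47H10A.5 (r = 0.932) and C54C8.12 (r = 0.927). F44E5.4 was closest to col-90 (r = 0.928), cpr-3 (r = 0.924) and Y47H10A.5 (r = 0.924), and F44E5.5 to Y47H10A.5 (r = 0.932), cebp-1 (r = 0.928) and col-90 (r = 0.928). For hsp-12.3 they were pck-2 (r = 0.750), F22F4.4 (r = 0.723) and C26C6.9 (r = 0.716), for hsp-17 H43E16.1 (r = 0.862), K02C4.5 (r = 0.841) and F32A5.4 (r = 0.837), and for sip-1 Y48G1A.2 (r = 0.895), nse-1 (r = 0.875) and mxl-2 (r = 0.873).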

How the data were processed

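RNA of whole worms was sequenced in 36 libraries. The deposited files hold whole-number counts per gene, made by the authors from paired-end, rRNA-depleted reads aligned to WBcel235 with STAR 2.7.10a and the annotation of release 96, with PCR duplicates removed by UMI-tools. The study used STAR's own gene counts in predicting biological age, but the sources used here do not say which program counted the reads of the deposited files, so how reads from near-identical or overlapping genes were shared is not known.

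Counts were tested with edgeR 4.0.16 in R 4.3.3 (filterByExpr, TMM factors, quasi-likelihood F test), with Benjamini-Hochberg adjustment over all genes tested and a threshold of 0.05. The diets were compared within each strain and day, in fits of 6 libraries. Ages were compared in fits of the 18 libraries of a strain, and the strains, with the interaction of diet and strain, in fits of the 12 libraries of a day. The ± after a log2 change is its standard error. Log2 CPM used a prior count of 2. The edgeR and DESeq2 fits were tested on simulated counts in 3 of the 27 comparisons. Of the calls, 4.64% to 7.69% were false with edgeR and 3.85% to 15.1% with DESeq2. For krill oil in PD animals at day 3, edgeR recovered 83.6% of changes of 2-fold. In the interaction of diet and strain at day 6 it recovered 52.2% of them. The alternatives were DESeq2 1.42.0, RLE factors, no filter but on all-zero genes, the replicate number as a block, all 36 libraries in 1 fit, near-identical copies summed and each library left out in turn.

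Gene symbols and coordinates came from Ensembl release 115 of WBcel235. It gives the symbols hsp-16.1 and hsp-16.48 to a pair of identifiers each, which were told apart by RefSeq's coordinates. All 10 members are named. Of 128 genes in other lists, counts are given and up to 4 with the smallest p in a comparison are named, and for likeness the 3 genes with the highest Pearson r. The members and lists were chosen with earlier results of these data known.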

Additional observations from a re-analysis of the deposited data

Results flagged for a closer look

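In the following genes the change with krill oil differed between the strains or between ages by a test of the difference itself, and the values are log2 differences from edgeR. The fits share libraries, so these results are not independent of each other.

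Between PD animals and wild type (PD minus wild type), the change with krill oil differed at day 3 for hsp-70 (1.37, adjusted p = 0.0266) and hsp-17 (-0.67, adjusted p = 0.00938). At day 6 it was higher in PD animals for F44E5.4 (1.27, adjusted p = 0.00892), F44E5.5 (1.19, adjusted p = 0.0171) and hsp-17 (1.23, adjusted p = 2.09e-05). It was lower in PD animals for hsp-16.41 (-0.78, adjusted p = 0.00140) and sip-1 (-0.42, adjusted p = 0.0393). Of the members, hsp-17 had a change with krill oil at day 6 that passed the test in opposite directions in the strains, and hsp-12.1, hsp-12.2, jmjd-3.1 and dnj-20 outside the members did so too. How many of all genes did so was not counted. At day 6 the change with krill oil was higher in PD animals for 34.5% of all genes and lower for 25.1%. The alternatives kept the call of hsp-70 at day 3 in 13 of 18, of F44E5.5 in 17 of 18 and of sip-1 in 10 of 18, and the other calls named here in all 18.

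Between day 1 and day 3 (day 3 minus day 1), the change with krill oil differed in PD animals for hsp-70 (2.61, adjusted p = 2.75e-04) and hsp-12.3 (2.24, adjusted p = 0.00121). In wild type it differed for the same pair, hsp-70 (2.50, adjusted p = 0.0102) and hsp-12.3 (2.03, adjusted p = 0.0192), and for sip-1 (-0.57, adjusted p = 0.00267). The call of hsp-12.3 in wild type was kept in 16 of 18 alternatives, and the other 4 in all 18.

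Between day 3 and day 6 (day 6 minus day 3), hsp-16.41 passed the test in PD animals (-0.63, adjusted p = 0.0465), a call that was kept in 5 of 18 alternatives and lost with DESeq2, the replicate block and all 36 libraries in 1 fit, among others. The change differed in PD animals for hsp-70 (-1.86, adjusted p = 1.51e-04) and hsp-17 (1.23, adjusted p = 3.00e-05). In wild type it differed for hsp-16.2 (-1.35, adjusted p = 0.00267), F44E5.4 (-2.11, adjusted p = 3.36e-04), F44E5.5 (-2.13, adjusted p = 5.60e-04), hsp-17 (-0.66, adjusted p = 0.00624) and sip-1 (0.54, adjusted p = 0.00130), and these calls were kept in all 18 alternatives.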

How the results depend on the processing

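Results for single members were 125 in 27 comparisons (112 calls, and 13 changes with krill oil that did not pass the test). Of their 1620 values under the alternatives, 1505 kept direction and side of the threshold, 112 lost the call, 3 gained it and 0 reversed. The gains were F44E5.5 in PD animals at day 1 with the copies summed (adjusted p = 0.0278), hsp-12.3 in PD animals at day 6 without PD krill oil replicate 2 (adjusted p = 0.0455), and F44E5.4 in wild type at day 6 without wild type control replicate 1 (log2 change -0.30, adjusted p = 0.0469). The gain with the copies summed came from a test of the summed counts of F44E5.4 and F44E5.5. RLE factors changed no call.

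Counts of members called moved as follows, and the cause was not tested. With DESeq2, 3 were called for krill oil in PD animals at day 1 (0 higher, 3 lower), and with all 36 libraries in 1 fit 3 (1 higher, 2 lower), in place of 5. With the replicate block, 0 were called for krill oil in wild type at day 1 and 1 for strain in krill oil fed animals at day 1. With only all-zero genes removed, 7 were called for day 6 against day 3 in krill oil fed wild type, 5 for strain in controls at day 3, 4, 3 and 5 for strain in krill oil fed animals at day 1, 3 and 6, and 1 and 5 for the interaction of diet and strain at day 1 and 3. With the copies summed, 2 were called for strain in krill oil fed animals at day 3. This was 1 test of the summed F44E5.4 and F44E5.5, counted for each gene. Leaving out 1 library at a time gave 2 to 4 for krill oil in PD animals at day 1, 4 to 7 at day 6, and 0 to 1 in wild type at day 1. It gave 1 to 3 for strain in controls at day 3, 1 to 2 and 0 to 1 in krill oil fed animals at day 1 and 3, and 1 to 4 for the interaction at day 3. A single library left out leaves its group with 2.

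The replicate numbers showed little sign of pairing the libraries. Over 18 pairs the correlation of deviations from the group means ran from -0.0195 to 0.308, and 1 was over 0.1. Of 18 krill oil fed libraries, 5 correlated best with their own number. With 3 libraries in a group, these values cannot show whether libraries of the same number shared a culture. The block removed 6 calls of single members.

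DESeq2, which changes the test as well as the scaling, moved the share of higher among all genes called by about 10 points or more in several comparisons. Krill oil in PD animals at day 6 and the interaction of diet and strain at day 6 were among these, with values given above. The share in further comparisons follows. It was 48.7% with edgeR and 58.7% with DESeq2 for krill oil in wild type at day 6, 41% and 51.6% for PD against wild type controls at day 6, 35.4% and 47.7% for the interaction of diet and strain at day 3, and 55.2% and 43.2% in PD animals and 45.2% and 56.7% in wild type for the change with krill oil at day 6 minus day 3. RLE factors by themselves moved these shares by less, to 51.3%, 48.7%, 41.3%, 46.3% and 53.1% in the same order. The median log2 change of all genes in PD against wild type controls at day 6 was -0.25 with TMM and -0.10 with RLE factors.

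Depth limits the members at day 1, where the inducible genes had 0 to 26 counts a library, so that small changes there were not detectable, and hsp-16.1 and hsp-16.48 could not be tested at any age.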
